A study of Mus musculus with 44 samples.

Results

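The immediate early response genes described here are Fos, Jun, Junb, Jund, Egr1, Atf3, Ier2, Ier3, Dusp1 and Zfp36. These 10 genes were taken by name from the 24733 genes with a value above 0 in mouse kidney, by a rule that uses no measured value. Polyadenylated RNA was measured in 24 kidney libraries of 129SV mice aged 8 to 12 weeks after birth, all fed only at night. WT mice were compared with KO mice that lack Bmal1 (Arntl), an activator of the circadian clock. Each genotype was sampled at ZT0, ZT4, ZT8, ZT12, ZT16 and ZT20, hours of the light-dark cycle, with 2 libraries (replicates A and B) per genotype and time. Levels are in TPM, an abundance scaled to transcript length and library size, which can be compared between genes. The labels do not say that A and B came from separate animals, so the p-values measure the spread between these libraries, which may be technical.

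Immediate early genes are transcribed within minutes of a stimulus, such as a growth factor, stress or hormone, by transcription factors that are already present in the cell. Jun, Junb and Jund encode subunits of the AP-1 transcription factor, in which they pair with each other or with Fos, and Atf3 encodes a stress-induced relative that can also pair with Jun proteins. Egr1 encodes a zinc-finger transcription factor, Ier2 and Ier3 are small response genes, Dusp1 encodes a phosphatase that switches off MAP kinases, and Zfp36 encodes a protein that speeds the decay of mRNAs with AU-rich elements. In the kidney such genes are known for their response to injury, osmotic stress and glucocorticoids.

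Total TPM was 999999 to 1000001 in every library, so the depth in reads is unknown, and precision was judged from the spread between replicates. Arntl was at 0.295 to 12.9 TPM in WT and 4.19 to 6.28 TPM in KO, so its level did not separate the genotypes. The library labelled KO ZT4 replicate A stood apart: its Nr1d1 level was 23.8 TPM against 1.23 to 3.46 TPM in the other 11 KO libraries, and its Cry1 level was 1.03 TPM against 11.5 to 17.8 TPM. WT libraries at ZT4 had 22 and 33 TPM of Nr1d1 and 1.2 and 0.845 TPM of Cry1. Without that library the genotype difference was 0.27 for Ier2 (limma adjusted p = 0.00045) and -0.29 for Dusp1 (limma adjusted p = 0.027), and Jund also passed (0.13, limma adjusted p = 0.0379), which took the count of members called from 2 to 3. Kidney markers were high in all libraries, with summed levels of 1830 to 2510 TPM for the proximal tubule and 1150 to 1740 TPM for the thick ascending limb, while 6 adrenal markers summed to 0.702 to 1.52 TPM.

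Most members were expressed at low to moderate levels. Fos averaged 0.295 TPM ± 0.105 (SD, n = 12) in WT and 0.492 ± 0.159 (SD, n = 12) in KO, and Atf3 averaged 0.633 ± 0.183 and 0.546 ± 0.22 (SD, n = 12 each). These were the only 2 members under the mean of 1 TPM that a gene needed to be tested, so 8 of 10 members were tested among 12874 genes. Egr1 averaged 1.24 TPM ± 0.324 in WT and 1.31 ± 0.392 in KO (SD, n = 12 each). Jund was the most abundant member, at 27.2 TPM ± 0.564 in WT and 29.8 ± 4.01 in KO (SD, n = 12 each). Next in order of the mean over all libraries came Ier3 at 19.3 TPM, Dusp1 at 15.5, Zfp36 at 13.8, Jun at 6.88, Junb at 5.37 and Ier2 at 4.49. Ier3 varied from 8.41 to 39.9 TPM, so its libraries overlapped those of Jund, Dusp1 and Zfp36. Jun, Junb and Ier2 also overlapped each other. In the annotation, exons of 5 of the 10 members overlap a gene on the opposite strand (Dusp1 with Ergic1, Jun with Junos, Junb with Prdx2, Jund with Gm11175 and Zfp36 with Gm44710), and whether the libraries kept strand is not given in the sources used here.

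**Figure D1:**
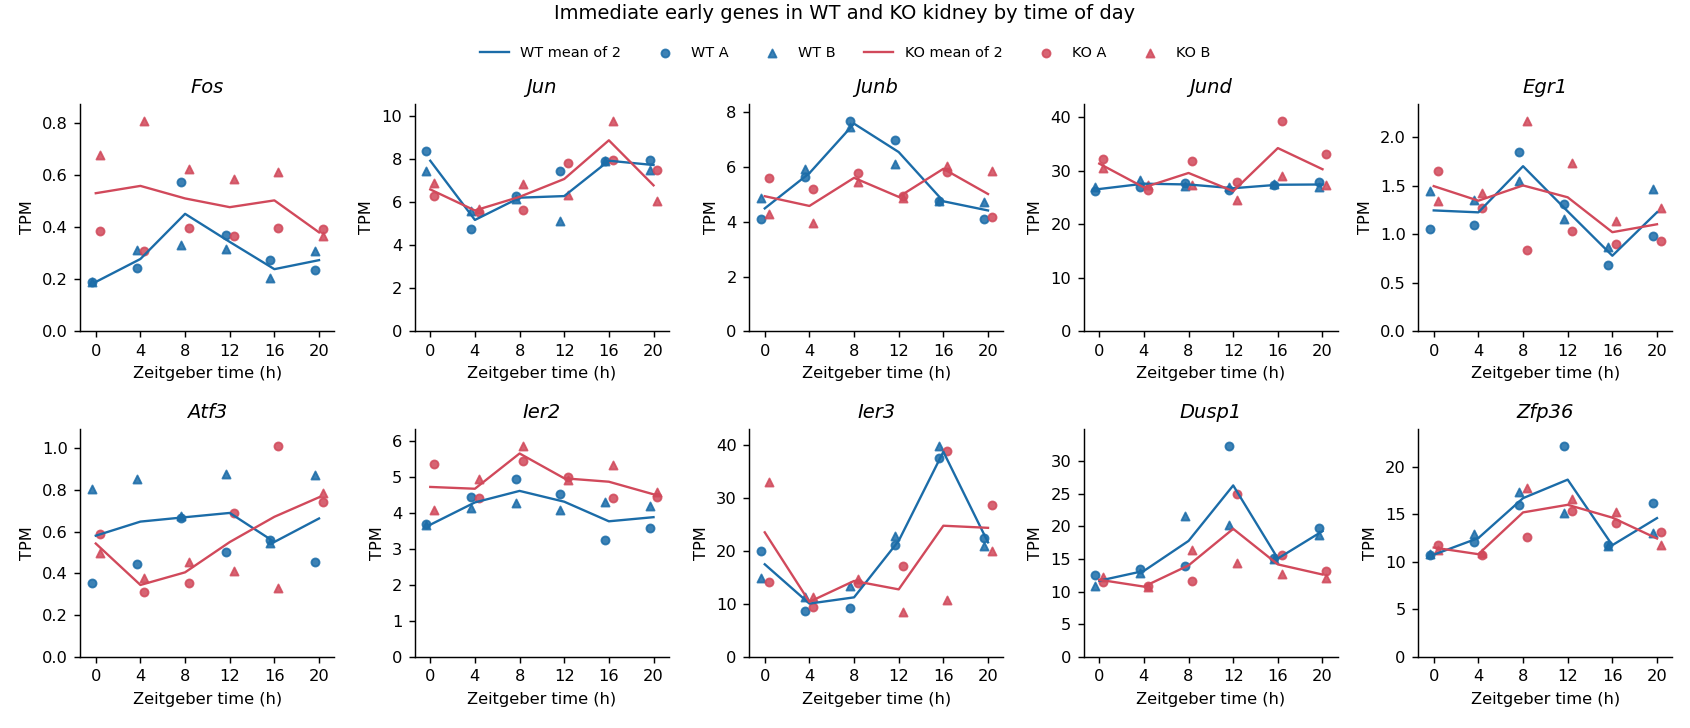
TPM of the 10 members (y axes, each from 0) against Zeitgeber time in hours (x axes), with circles for replicate A, triangles for replicate B and lines through the mean of 2 libraries in WT (blue) and KO (red). Junb in WT is highest at ZT8, Ier3 in WT at ZT16, and KO libraries of Ier3 lie far apart at ZT0 and ZT16.

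The first comparison asked how loss of Bmal1 moved the level of these genes once time of day was accounted for. Of the 8 tested members, Ier2 was higher in KO and Dusp1 lower, and the other 6 did not pass the threshold (limma adjusted p under 0.05). Across all 12874 genes 60.9% passed, 50.9% with KO higher and 10.0% with KO lower, so a count of 2 of 8 was below the background. The median change of all genes was 0.15 on the log2(TPM + 0.1) scale, and that of the 8 tested members was -0.03. Rescaling the libraries by the median of gene ratios took the median of all genes to 0.0017 and the share of calls with KO higher from 83.6% to 49.9%. Relative to the median of all genes, the changes were 0.43 for Fos, -0.15 for Jun, -0.24 for Junb, -0.029 for Jund, -0.08 for Egr1, -0.36 for Atf3, -0.30 for Ier3 and -0.21 for Zfp36, and those of Ier2 and Dusp1 are given with these genes.

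Ier2 lies on chromosome 8 from 84661331 to 84662852 (GRCm38, minus strand). Its level in WT ran from 3.24 TPM over a median of 4.16 to 4.95, and in KO from 4.07 over 4.93 to 5.86, so the libraries overlapped. At ZT0 the KO libraries had 5.37 and 4.07 TPM against 3.69 and 3.65 in WT, and at ZT8 they had 5.44 and 5.86 against 4.95 and 4.27. The KO mean was above the WT mean at 6 of 6 times, a pattern that 39.9% of all tested genes shared. The difference was 0.26 log2 units (SE 0.057, limma adjusted p = 0.000793), or 0.11 relative to the median of all genes. After the rescaling, under which 44.3% of all genes passed, it was 0.11 (limma adjusted p = 0.12) and no longer passed.

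Dusp1, on chromosome 17 from 26505590 to 26562128 (GRCm38, minus strand), was lower in KO. Levels in WT ran from 10.8 TPM over a median of 15.1 to 32.3, and in KO from 10.7 over 12.5 to 24.9, with wide overlap. The KO mean was lower at 5 of 6 times. At ZT20 the WT libraries had 19.8 and 18.7 TPM and the KO libraries 13.2 and 12.0, without overlap, whereas at ZT0 the pairs were 12.5 and 10.8 against 11.4 and 12.2. The difference was -0.29 log2 units (SE 0.10, limma adjusted p = 0.0207), or -0.44 relative to the median of all genes, and it passed in all 24 fits that left out 1 library (adjusted p from 0.0104 to 0.0419). After the rescaling it was -0.44 (limma adjusted p = 0.0013), and with no time in the model the adjusted p was 0.109.

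Fos, on chromosome 12 from 85473890 to 85477273 (GRCm38, plus strand), was too low for the test at the chosen minimum. Its KO mean was higher than the WT mean at 6 of 6 times, by 0.58 log2 units (SE 0.15). At ZT0 the KO libraries had 0.383 and 0.676 TPM against 0.191 and 0.188 in WT, and at ZT16 they had 0.395 and 0.609 against 0.273 and 0.204. At ZT4 the pairs overlapped, with 0.307 and 0.808 in KO and 0.244 and 0.311 in WT. They also overlapped at ZT8, with 0.397 and 0.622 in KO and 0.571 and 0.33 in WT. The same held at ZT12, with 0.367 and 0.585 in KO and 0.369 and 0.317 in WT. In KO, replicate B was above replicate A at every time but ZT20, where the libraries had 0.392 (A) and 0.367 (B). With a minimum of 0.25 TPM, chosen after the data were seen, the Fos difference passed (limma adjusted p = 0.00343) beside 55.5% of 15509 genes. At levels under 1 TPM the size of the Fos difference is uncertain.

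Marker levels of some cell types also differed between the genotypes. The 4 podocyte markers summed to 59.2 to 83.8 TPM in WT and 79.0 to 118 TPM in KO, the 4 intercalated-cell markers to 44.2 to 61.9 and 58.9 to 95.7 TPM, and the 4 principal-cell markers to 184 to 307 and 246 to 541 TPM. The 3 distal convoluted tubule markers summed to 169 to 234 TPM in WT and 176 to 320 TPM in KO. The lowest KO sums of the intercalated, principal and distal lists were those of KO ZT4 replicate A. In the other KO libraries these sums were at least 68.5, 271 and 239 TPM. The median change of all tested genes was 0.15 log2 units. The 12 leukocyte markers summed to 54.9 to 136 TPM in WT and 51.3 to 73.3 TPM in KO, with none at 0 in every library. In whole tissue, fewer cells of a type and less RNA per cell cannot be told apart, and the part of these markers in the differences of Ier2, Dusp1 and Fos was not tested.

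The AP-1 subunits other than Fos did not pass the genotype test. Jun (chromosome 4, 95049034 to 95052222, minus strand) had means of 6.89 TPM ± 1.24 in WT and 6.88 ± 1.25 in KO (SD, n = 12 each), a difference of 0.0011 log2 units with a 95% interval from -0.15 to 0.15. Junb (chromosome 8, 84974484 to 84978718, minus strand) differed by -0.10, with an interval from -0.28 to 0.092. Jund (chromosome 8, 70698949 to 70700616, plus strand) differed by 0.12, and its adjusted p of 0.0528 (limma) lay just outside the threshold; it passed in 7 of the 24 fits that left out 1 library, the one without KO ZT4 replicate A among them, with adjusted p from 0.0258 to 0.098. For Junb and Zfp36 the rescaling brought the difference past the threshold, at -0.24 (limma adjusted p = 0.0479) and -0.21 (limma adjusted p = 0.0288). Atf3 (chromosome 1, 191170296 to 191218039, minus strand), not tested, differed by -0.21, with an interval from -0.58 to 0.16.

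Egr1 (chromosome 18, 34859823 to 34864984, plus strand) and Ier3 (chromosome 17, 35821684 to 35822923, plus strand) had wide intervals. The Egr1 difference was 0.068 log2 units, with a 95% interval from -0.21 to 0.35, and its libraries ran from 0.687 to 1.85 TPM in WT and from 0.834 to 2.17 in KO. For Ier3 the difference was -0.15, with an interval from -0.60 to 0.30. Zfp36 (chromosome 7, 28376784 to 28380253, minus strand) differed by -0.06, with an interval from -0.21 to 0.093. The intervals of Egr1 and Ier3 reach past the size of the difference called for Ier2.

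**Figure D2:**
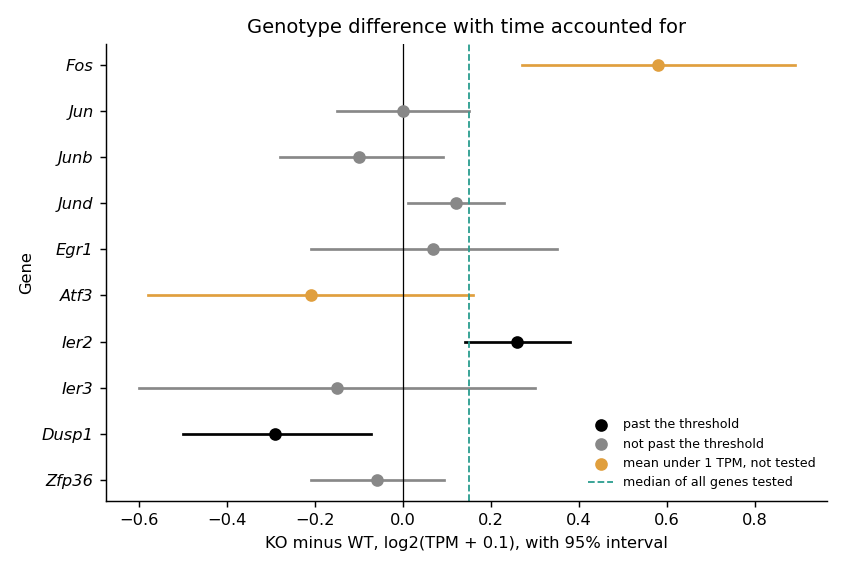
KO minus WT difference on the log2(TPM + 0.1) scale (x axis) for the 10 members (y axis), with points for estimates and bars for 95% intervals; black passed the threshold, grey did not and orange was not tested. Ier2 lies at 0.26 and Dusp1 at -0.29, on either side of 0, and the dashed line marks the median of all genes, 0.15.

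At single times, where 2 libraries stood against 2, no member passed at any of the 6 times (0 of 48 tests, limma). An unadjusted p under 0.05 was reached in 6 of 48. Over all genes the share under that p was 31.5% at ZT0, 12.7% at ZT4, 30.9% at ZT8, 48.7% at ZT12, 36.4% at ZT16 and 20.9% at ZT20. The members' 6 were Ier2 at ZT0 and ZT16, Junb at ZT8 and ZT12, Jund at ZT16 and Dusp1 at ZT20. At the adjusted threshold, the shares of all genes called were 13.4% at ZT0, 0.0% at ZT4, 14.6% at ZT8, 38.2% at ZT12, 21.5% at ZT16 and 3.72% at ZT20. The ZT4 pair includes the library labelled KO ZT4 replicate A; without it 11.6% of genes passed at ZT4 and still 0 of 8 members, with the lone KO library assumed to vary like the other groups. Junb at ZT8 had 7.69 and 7.46 TPM in WT and 5.77 and 5.43 in KO, a difference of -0.43 (SE 0.16, limma adjusted p = 0.0878) with no overlap. At ZT12 it had 6.98 and 6.1 TPM in WT and 4.95 and 4.86 in KO, a difference of -0.40 (SE 0.16, limma adjusted p = 0.0622). With the rescaling the ZT12 difference of Junb was -0.64 and passed (limma adjusted p = 0.0186), the only member and time to do so under that scaling. Leaving out 1 library brought 1 member past the threshold in 8 of 24 fits. These were Ier2 at ZT16 without WT ZT16 replicate B (0.56, limma adjusted p = 0.0451), Jund at ZT16 without KO ZT16 replicate B (0.53, limma adjusted p = 0.012), Junb at ZT12 without either KO library of ZT4 or of ZT20 (-0.40, limma adjusted p from 0.0392 to 0.0453), and the Ier3 and Dusp1 differences described with those genes.

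The second comparison asked which members followed a 24-hour rhythm in each genotype. In WT 3 of the 8 tested members fitted a 24-hour cosine at the threshold, against 13.7% of all genes, and these were Junb, Ier3 and Jun. In KO 0 of 8 did, against 3.64% of all genes, and 3 of 8 (Jun, Zfp36 and Ier3) had an unadjusted p under 0.05, against 21.1% of all genes (limma). A rhythm called in 1 genotype is no test of a difference. When the rhythms were compared directly, 0 of 8 members passed, against 0.629% of all genes, and 1 of 8, Junb, had an unadjusted p under 0.05, against 13.7% of all genes (limma). A difference in rhythm was therefore not shown for any member.

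Junb showed the clearest daily course in WT. It stood at 4.11 and 4.86 TPM at ZT0, 5.62 and 5.92 at ZT4, 7.69 and 7.46 at ZT8, and 6.98 and 6.1 at ZT12. It was back at 4.74 and 4.75 TPM at ZT16 and 4.09 and 4.73 at ZT20, so both ZT8 libraries lay above all other WT libraries. From trough to peak the fitted cosine spanned 0.80 log2 units (SE 0.13), with its peak at ZT8.72 (SE 0.644 h, limma adjusted p = 0.00154). In KO the libraries lay between 3.95 and 6.04 TPM with no common peak, and the fit gave 0.22 (SE 0.13, limma adjusted p = 0.544). The difference between the rhythms, -0.57 log2 units, had an adjusted p of 0.107 (limma).

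Ier3, whose product is linked to cell survival under stress, had the largest rhythm. In WT it was lowest at ZT4, with 8.73 and 11.4 TPM, and highest at ZT16, with 37.7 and 39.9 TPM, above all other WT libraries (at most 22.8 TPM). The fitted cosine spanned 1.77 log2 units from trough to peak (SE 0.39), with its peak at ZT16.8 (SE 0.85 h, limma adjusted p = 0.0145), and it passed in all 24 fits that left out 1 library. KO libraries of the same time stood far apart. At ZT16 they had 38.9 and 10.7 TPM and at ZT0 14.1 and 33.0, so the KO estimate of 1.10 (SE 0.39, limma adjusted p = 0.209) rests on pairs that disagree. At ZT12 the KO libraries had 17.1 and 8.41 TPM against 21.1 and 22.8 in WT. Without KO ZT16 replicate A, the KO minus WT difference of Ier3 at ZT16 was -1.85 log2 units (limma adjusted p = 0.0262). Without replicate B it was 0.0029, and with all libraries it was -0.92 and did not pass.

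Jun in WT had its fitted peak during the night. Its level was 8.41 and 7.47 TPM at ZT0, 4.77 and 5.6 at ZT4, and 7.94 and 7.94 at ZT16, and the fit gave 0.55 log2 units (SE 0.15) with a peak at ZT18.9 (SE 1.04 h, limma adjusted p = 0.0422). This call is marginal: it was kept in 12 of the 24 fits that left out 1 library, with adjusted p from 0.0314 to 0.0884, and it was lost with the WT libraries alone (adjusted p = 0.0517). In KO the highest Jun libraries were those of ZT16, 7.97 and 9.81 TPM, and the fit gave 0.50 (SE 0.15), peaking at ZT16.1 (SE 1.13 h, limma adjusted p = 0.114). For Jund in WT the 12 libraries lay between 26.2 and 28.2 TPM, and the fit gave 0.0083 (SE 0.10).

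Dusp1 and Zfp36, the phosphatase and the mRNA-decay factor, each had their highest WT library at ZT12. In WT, Dusp1 was at 12.5 and 10.8 TPM at ZT0, 13.9 and 21.6 at ZT8 and 32.3 and 20.2 at ZT12, and Zfp36 was at 10.7 and 10.8, 16 and 17.4, and 22.2 and 15.1 TPM at the same times. The cosine fits gave 0.79 log2 units (SE 0.25, peak ZT13.0, limma adjusted p = 0.0798) for Dusp1 and 0.57 (SE 0.16, peak ZT10.9, limma adjusted p = 0.0587) for Zfp36. With the rescaling both passed, at adjusted p of 0.0426 and 0.0339, beside 15.4% of all genes. KO fits had peaks at ZT12.9 for Dusp1 and ZT12.7 for Zfp36 and sizes of 0.64 and 0.56, neither past the threshold. Egr1 (0.61, SE 0.28), Ier2 (0.30, SE 0.11) and Fos (0.67, SE 0.28, not tested) had their WT peaks between ZT5.75 and ZT9.54, none past the threshold.

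**Figure D3:**
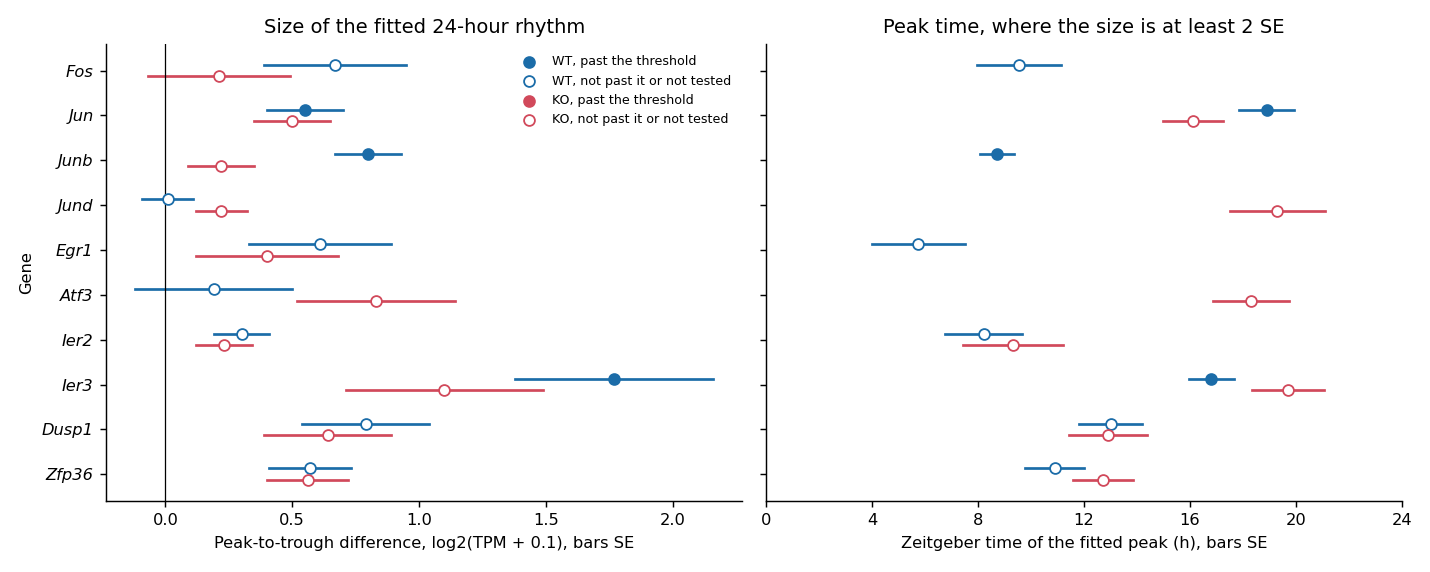
Left, fitted peak-to-trough difference of the 24-hour rhythm on the log2(TPM + 0.1) scale with SE bars; right, fitted peak time in hours where the size was at least 2 SE; WT is blue, KO is red, and filled points passed the threshold. Junb, Ier3 and Jun are filled in WT at 0.80, 1.77 and 0.55, and no KO point is filled.

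A test over the 6 times that assumed no shape gave 2 of 8 members in WT, Junb (limma adjusted p = 0.0327) and Zfp36 (limma adjusted p = 0.046), against 4.47% of all genes. Both calls are fragile. When 1 library was left out, Junb passed in 12 of 24 fits and Zfp36 in 4 of 24, and with the replicate letter as a block Zfp36 was lost (limma adjusted p = 0.0599). Ier3 in WT, which had the largest fitted cosine, did not pass this test (limma adjusted p = 0.157). In KO no member passed, against 0.217% of all genes, and 2 of 8 had an unadjusted p under 0.05, against 16.1% of all genes (limma).

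Because Dusp1 and Zfp36 varied together, with r = 0.79 over the 24 libraries, the 250 bases before the RefSeq start of each are shown. Beside them stand those of Fos and of Ier3, the member with the largest fitted WT rhythm. RefSeq (GRCm38.p6) had an entry for 8 of the 10 members, all but Egr1 and Ier2. Capitals mark matches on either strand to the E-box CACGTG (bound by CLOCK and BMAL1), the cAMP response element TGACGTCA, the AP-1 element TGANTCA, the GC box GGGCGG, the TATA box TATAAA, the ETS site CCGGAAG and the CArG box, the site of SRF. The windows are chr17:26508473-26508722 (minus strand) for Dusp1, chr7:28379229-28379478 (minus) for Zfp36, chr12:85473640-85473889 (plus) for Fos and chr17:35821463-35821712 (plus) for Ier3.
Dusp1: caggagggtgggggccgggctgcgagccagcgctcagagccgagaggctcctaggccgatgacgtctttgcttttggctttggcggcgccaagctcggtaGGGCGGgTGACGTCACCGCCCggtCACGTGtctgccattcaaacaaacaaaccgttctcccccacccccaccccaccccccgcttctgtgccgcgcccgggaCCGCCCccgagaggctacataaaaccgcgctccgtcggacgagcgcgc
Zfp36: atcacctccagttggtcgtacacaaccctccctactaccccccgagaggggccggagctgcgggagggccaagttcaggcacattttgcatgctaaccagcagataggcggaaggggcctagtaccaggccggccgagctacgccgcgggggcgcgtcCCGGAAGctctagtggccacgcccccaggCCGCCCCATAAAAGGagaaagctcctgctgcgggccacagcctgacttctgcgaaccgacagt
Fos: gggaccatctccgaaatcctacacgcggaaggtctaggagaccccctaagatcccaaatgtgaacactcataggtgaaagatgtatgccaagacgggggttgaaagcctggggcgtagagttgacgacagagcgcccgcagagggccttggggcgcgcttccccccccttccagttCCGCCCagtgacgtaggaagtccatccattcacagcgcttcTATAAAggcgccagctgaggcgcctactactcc
Ier3: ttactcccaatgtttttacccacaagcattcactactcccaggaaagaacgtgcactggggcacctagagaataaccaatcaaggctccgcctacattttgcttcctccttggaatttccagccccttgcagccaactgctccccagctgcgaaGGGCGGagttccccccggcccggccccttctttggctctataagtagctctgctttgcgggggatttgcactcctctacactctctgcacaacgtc

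In the windows of 250 bases before and 50 bases from the start, only exact matches to the letters above were counted. The E-box at -126 to -121 and the cAMP response element at -143 to -136 were found as exact matches in Dusp1 only, out of 8 members. Shorter or inexact forms, such as tgacgt in the Fos window, were not counted, so a member without a match may still hold a form of the element. Of 32851 RefSeq promoters of this length, 7.15% held the E-box and 1.79% the cAMP response element. The latter adjoins a GC box at -135 to -130 in Dusp1. Zfp36 alone held a CArG box (-58 to -49, against 1.63% of all promoters), which shares 1 base with a GC box, and an ETS site (8.86%). GC boxes were in 6 of 8 members (35.7% of all promoters), TATA boxes in Fos at -33 to -28 and in Junb at 1 to 6 (13.6%), and the AP-1 element in none (7.81%). A match is a description of letters and shows no binding. The RefSeq windows also do not always sit at the annotated gene start. That of Jund ends at 70697788, before the gene, which starts at 70698949. For Junb, on the minus strand, the bases before the RefSeq start reach down to 84978749, and the annotated gene start is at 84978718. The Junb TATA match at 1 to 6 thus lies upstream of the annotated start. The Atf3 window ends at 191183583, inside a minus-strand gene that reaches to 191218039, and the Dusp1 and Zfp36 windows also lie inside their genes. Such windows may not be the promoters of the transcripts measured.

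The 2 libraries of a group differed widely for several members. The residual SD around the group means was 0.54 log2 units for Ier3, 0.47 for Atf3, 0.37 for Fos and for Egr1, and 0.28 for Dusp1, against a median of 0.15 over all tested genes. Ier3 had a larger residual SD than 94.4% of tested genes, and Jund (0.12) than 36.3%. For Ier3 the SD was 0.23 in WT and 0.72 in KO, for Jund 0.028 and 0.17, and for all genes the medians were 0.11 and 0.17. The KO spread thus exceeded the WT spread across the transcriptome as well, by less than for Ier3 or Jund. The KO values include the ZT4 pair with KO ZT4 replicate A, the library with WT-like Nr1d1 and Cry1. In that pair A minus B was -0.25 log2 units for Ier3 and -0.051 for Jund. The part of that library in the KO median of all genes was not tested, so the median need not describe KO kidneys in general. For Fos and Atf3 the values depend on the pseudocount: with 1 TPM in its place they were 0.15 and 0.20.

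**Figure D4:**
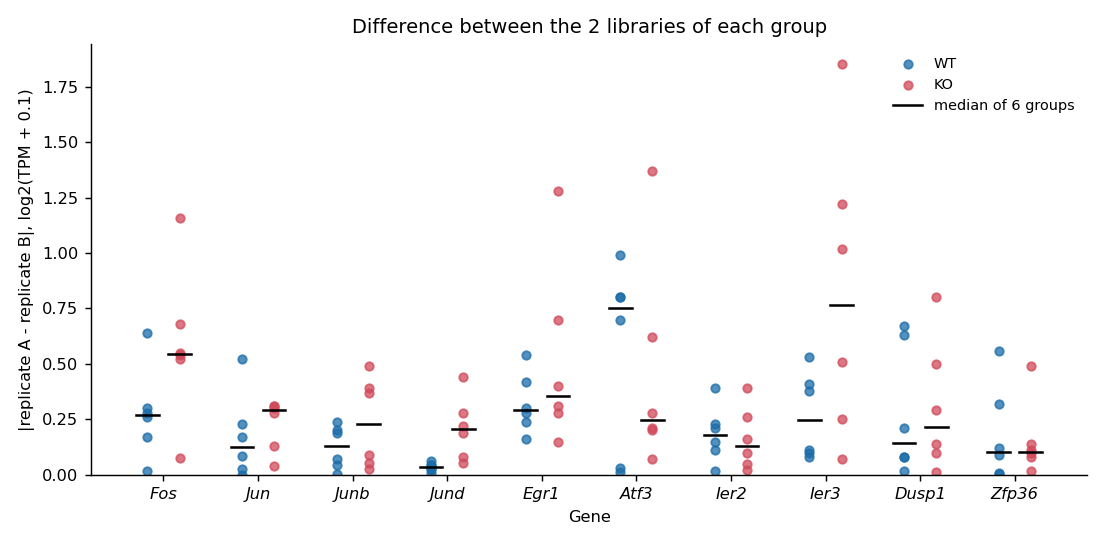
Size of the difference between replicates A and B on the log2(TPM + 0.1) scale (y axis) in the 6 groups of each genotype, for each member (x axis); bars mark medians. Ier3 in KO reaches 1.85, and Jund in WT stays at or under 0.061.

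Differences between replicates at ZT12 ran in the same direction for Dusp1 and for genes that glucocorticoids induce. In KO ZT12, replicate A had 24.9 TPM of Dusp1 and replicate B 14.3, beside 236 and 48.1 TPM of Sgk1, 27.8 and 7.62 of Fkbp5, 13.7 and 4.51 of Per1, 79.2 and 28.6 of Tsc22d3, and 5.16 and 0.358 of Zbtb16. In WT ZT12, replicate A had 32.3 TPM of Dusp1 and replicate B 20.2, beside 40.7 and 29.2 of Fkbp5 and 15.7 and 7.55 of Per1. Zfp36 was higher in A in WT (22.2 against 15.1 TPM) but not in KO (15.4 against 16.6). Of all tested genes, 62.7% were higher in A at KO ZT12 and 52.0% at WT ZT12. At KO ZT8, Dusp1 was lower in A (11.6 against 16.4 TPM). There Sgk1 (78.4 against 62.0), Fkbp5 (17.3 against 15.6) and Zbtb16 (2.49 against 2.23) were higher in A, Per1 was level and Tsc22d3 was lower. At WT ZT8, Dusp1 (13.9 against 21.6 TPM) and all these glucocorticoid-induced genes were lower in A. Most tested genes were also lower in A there: 36.5% were higher in A at WT ZT8, against 47.3% at KO ZT8. Leukocyte markers summed to 54.9 TPM in WT ZT12 replicate A and 136 in B, and adipose markers to 10.5 TPM in KO ZT12 replicate A and 0.231 in B. The part of glucocorticoid exposure, leukocytes or adipose tissue in these differences was not tested. Without KO ZT12 replicate A, Dusp1 at ZT12 was lower in KO by -0.84 log2 units (limma adjusted p = 0.0471), and with all libraries by -0.44, which did not pass.

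**Figure D5:**
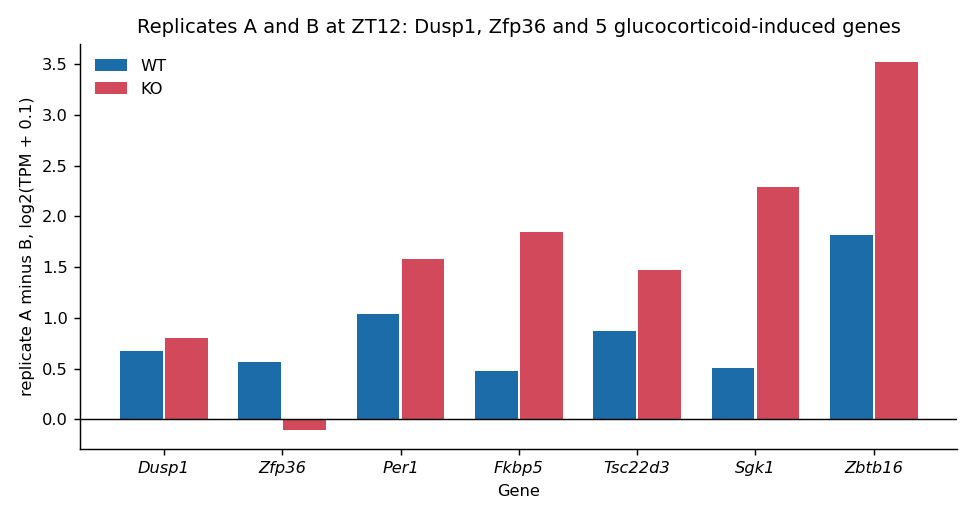
Replicate A minus replicate B at ZT12 on the log2(TPM + 0.1) scale (y axis) for Dusp1, Zfp36 and 5 genes induced by glucocorticoids (x axis), in WT (blue) and KO (red). All bars but that of Zfp36 in KO lie above 0.

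For 6 members the table holds 1 transcript each, so their gene level is that of the coding transcript. The Dusp1 level was the sum of the coding transcript, at a median share of 72.4%, and of 2 models with a retained intron, at 11% and 15%. All 3 had their highest WT group mean at ZT12, with ratios of highest to lowest group mean of 2.34, 1.89 and 2.16. For the last of these, ZT12 (3.6 and 3.75 TPM) overlapped with ZT20 (3.43 and 3.81 TPM). For Fos, the coding transcript averaged 0.223 TPM ± 0.0657 in WT and 0.37 ± 0.0715 in KO (SD, n = 12 each), so the higher level in KO was seen in the coding transcript. A non-coding Fos transcript (Fos-203) was listed at 0 in all 12 WT libraries and in 5 of 12 KO libraries. Its highest level was 0.143 TPM, so with the depth unknown a 0 does not show absence. Another non-coding Fos transcript (Fos-202) was at 0 in 7 WT and 7 KO libraries. For Egr1, 1 of 2 coding transcripts held a median of 93.4% of the level.

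Members did not move as 1 block. Of 45 pairs, 27 had a correlation above 0 over the 24 libraries, with a median r of 0.14 and a range from -0.58 (Egr1 with Ier3) to 0.79. These libraries share genotype, time and composition, so the r values only describe them. The genes outside the list that were most like the mean of the tested members were Csrnp1 (r = 0.81), Itprip (0.80), Per1 (0.78), Grasp (0.77) and Trib1 (0.77), all over 24 libraries. Closest to Dusp1 were Usp2 (0.84), Plk3 (0.79) and Rgcc (0.79), to Fos were Snx4 (0.87), Zfp956 (0.85) and Shisa7 (0.85), and to Egr1 were Mfsd1, Abi1 and Washc5 (0.69 each).

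Other immediate early genes, a list of 42 of which 36 were tested, had 13 members higher and 5 lower in KO, with a median change of 0.13 against 0.15 over all genes. Sik1, a kinase gene induced by cAMP, fell by 0.94 log2 units (SE 0.13, limma adjusted p = 6.44e-06), Ier5 rose by 0.96 (SE 0.11, limma adjusted p = 8.67e-07) and Ccn2, encoding a matrix protein, fell by 0.48 (SE 0.13, limma adjusted p = 0.00313). In WT 12 of 36 followed a 24-hour rhythm, against 13.7% of all genes, including Plk3 (peak ZT13.7, limma adjusted p = 0.0435) and Gadd45b (peak ZT8.25, limma adjusted p = 0.045). In KO 3 of 36 did (Klf10, Gadd45g and Errfi1), against 3.64% of all genes. In the direct comparison of rhythms 1 of 36 passed, Myc, against 0.629% of all genes.

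The kinases, transcription factors and inhibitors around the members were counted in the same way. Of 21 genes of the ERK and stress kinase pathway, 10 rose and 2 (Braf and Map2k6) fell, with a median of 0.11, and Mapkapk2 rose by 0.49 (SE 0.059). Of 13 transcription factors that act on immediate early promoters, 7 rose and none fell, with a median of 0.19; Creb1 rose by 0.24 (SE 0.074, limma adjusted p = 0.00803). Of 11 tested feedback phosphatases and inhibitors, 1 (Dusp14) rose and 3 (Dusp3, Dusp4 and Spry4) fell, with a median of -0.0015; Dusp4 fell by 0.65 (SE 0.14, limma adjusted p = 0.00057). Of 7 tested AP-1 partners, 3 rose (Batf3, Jdp2 and Atf7) and none fell, with a median of 0.07. In the heat shock list of 7, 2 rose (Hspa1a and Hspa1b) and 1 fell (Hsp90aa1), with a median of 0.016, and in the glucocorticoid list of 5, Tsc22d3 and Sgk1 rose while Fkbp5 fell by 0.68 (SE 0.17), with a median of 0.48. All these counts stand against 50.9% and 10.0% of all genes called higher and lower. Changes in these lists and in the other immediate early genes are given without the rescaling, under which the Ier2 call was lost. They stand beside a median change of 0.15 log2 units over all genes.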

How the data were processed

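Kidney polyA RNA-seq of 24 libraries was analysed; 20 4C-seq libraries were not analysed here. The authors deposited TPM per transcript, made with kallisto 0.42.4 per the submitters' processing notes (mm10, GRCm38); the annotation release is not given in the sources used here. Transcript TPM were summed to genes with GENCODE M21: 86119 of 88198 transcripts matched, and 1.35 to 2.24% of TPM did not. Values were taken as log2(TPM + 0.1), so fold changes of low genes are understated. The 12874 genes whose mean reached 1 TPM were fitted with limma 3.58.1 in R 4.3.3 (trend and robust), with p-values adjusted by Benjamini-Hochberg over all of them and a threshold of 0.05. Tests were two-sided: genotype with time as a factor, genotype at each time, a 24-hour cosine in each genotype, the difference of the cosines, and the 6 times within a genotype. In simulated data on 12874 genes, changes of 1 log2 unit were recovered in 92% of 200 genes for genotype, 83.5% for the WT rhythm and 71% for the rhythm difference. False calls made up 5.15%, 5.65% and 2.74% of the calls in these. The simulated noise was independent between genes, and no shift of all genes was added. The genotype differences called here were under 1 log2 unit, so the recovered shares do not say how often such differences would be found. All 10 members are named; the nearest genes were named by the largest r. The alternatives were other pseudocounts, filters, scaling, designs and each library left out. The rule for the members uses no measured value, but the members and lists were chosen with earlier results of these data known.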

Additional observations from a re-analysis of the deposited data

Results flagged for a closer look

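Myc, a growth-control transcription factor among the other immediate early genes, was the 1 gene of the lists whose rhythm differed between the genotypes (limma adjusted p = 0.027). In WT it ran from 1.94 TPM at ZT16 to 3.79 TPM at ZT4, with a fitted peak at ZT0.738, and in KO from 3.2 TPM in ZT4 replicate A, the library with WT-like Nr1d1 and Cry1, to 5.47 TPM at ZT8, with a fitted peak at ZT12.1. From trough to peak the fitted WT cosine spanned 0.73 log2 units, with an SE of 0.16, and the KO cosine 0.48, with the same SE, where the rhythm did not pass the threshold (limma adjusted p = 0.149). Without that library the rhythm difference still passed (limma adjusted p = 0.0291). It passed in 21 of 24 fits that left out 1 library and was lost without WT ZT4 replicate B (0.0532), WT ZT16 replicate A (0.0596) or KO ZT12 replicate B (0.0579). It was also lost with no filter (0.0518) and with time as a factor in place of the cosine (0.143).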

How the results depend on the processing

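Depth in reads is unknown, so the spread between 2 libraries per group limits every value, and Fos and Atf3 lie near the lower limit of measurement. The number of members past the threshold in the genotype test was 2; it was 1 of 6 with a minimum of 5 TPM, 1 of 8 with no time in the model, 3 of 8 with median-of-ratios scaling and 2 to 3 when 1 library was left out. The WT rhythm count of 3 became 5 with the scaling and 2 to 4 without 1 library. The count of 2 over the 6 times in WT became 0 with no filter, 1 with a minimum of 0.25 TPM (added after the data were seen), 1 with the replicate letter as a replicate block, and 0 to 2 without 1 library. The count over single times was 0, 1 with the scaling, and 0 to 1 without 1 library. Counts for the KO rhythm, the rhythm difference and the 6 times in KO were 0 in all 24 fits without 1 library.

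Replicate letters showed no pairing common to all groups. Over 66 pairs of groups the correlation of A minus B ran from -0.323 to 0.338, with a median of 0.0223 and 21 over 0.1. A batch shared by only some of the libraries was not tested. With the replicate block, the genotype count was 3, as Jund (0.12, limma adjusted p = 0.0419) also passed. Median-of-ratios scaling turned the sign of the uncalled genotype differences of Jun (-0.15), Jund (-0.029) and Egr1 (-0.069). Without 1 library, the genotype difference ran from -0.04 to 0.03 for Jun and from -0.25 to 0.0057 for Ier3, and the ZT16 difference of Ier3 from -1.85 to 0.0029. Among 40 uncalled single-time differences not printed, the sign turned in 12 with the scaling and in 18 when some library was left out; of 7 rhythm differences not printed it turned in 5 when some library was left out. The causes were not tested.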
